A study of Mus musculus with 12 samples.

Results

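The genes described here are the heat shock proteins, the DnaJ co-chaperones, the heat shock transcription factors and the BAG factors of mouse fat grafts. They were chosen by symbol alone among the 14873 protein-coding genes of a table of 19547 genes, and 78 matched. Hspa1a and Hspa1b are near-identical copies and were added together, which leaves 77 members. One member, Hsf2bp, encodes a protein that binds a heat shock factor, and Hspb11 encodes a subunit of the intraflagellar transport machinery, so these 2 carry the family's name without being chaperones or heat shock factors.

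RNA was sequenced from fat grafts of wild type C57BL/6 mice, labelled as adipose tissue of mice aged 16 weeks, after 8 weeks of grafting. The control group holds control grafts, the CAL group (cell-assisted lipotransfer) holds grafts to which ASC (commonly read as stem or stromal cells from adipose tissue) had been added, and the CAL_Dll4i group holds grafts with added ASC and inhibition of Dll4, a ligand of Notch receptors. Each group has 4 libraries, and neither the means of Dll4 inhibition nor the number of animals is labelled, so a p-value here speaks only for the spread among the libraries, which may be technical. The study asked, by its title, how Dll4 inhibition bears on vessel growth and graft volume.

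Library totals lay between 55883051 and 70804141 counts. The 10 adipocyte markers summed to between 789 and 2574 CPM (counts scaled to a common library size by the TMM method) and the 5 macrophage markers to between 3332 and 3887 CPM, so both cell types were present in every library. Skeletal muscle markers (6 of 12 on the list were analysed, none at 0) set 3 libraries apart: their sum was 124 CPM in CAL replicate 1, 250 CPM in CAL replicate 2 and 443 CPM in CAL_Dll4i replicate 3, against 3.67 to 14.3 CPM in the other 9. Keratinocyte markers (3 of 6 analysed, none at 0) summed to between 50.9 and 325 CPM in 6 libraries of all 3 groups and to between 1.64 and 13.7 CPM in the other 6. In bulk tissue, fewer cells of a type and less RNA per cell cannot be told apart.

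Heat shock proteins hold other proteins in solution and help them fold. HSP70 chaperones bind unfolded stretches in a cycle driven by ATP, DnaJ proteins (also called HSP40) bring them clients and start hydrolysis, and BAG and HSP110 proteins exchange the nucleotide so that the client is released. In stressed cells the factor HSF1 binds repeats of a short unit, the heat shock element, before the genes for inducible HSP70, HSP110, HSP90 and small heat shock proteins, whereas chaperones of the endoplasmic reticulum answer to the unfolded protein response.

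Promoter sequences, where available, show which members carry such an element close to the gene's start. The windows below run from 160 to 41 bases before the annotated start, 5′ to 3′ on the gene's strand, from RefSeq on GRCm38.p6, and capitals mark each match to a pair of head-to-head or tail-to-tail units, GAANNTTC or TTCNNGAA. Hspa1a stands for both inducible HSP70 copies, Hspb1 for the small heat shock proteins, and Hspe1 for a chaperonin promoter with overlapping units. They lie at chr17:34972197-34972316 (minus strand), chr5:135887759-135887878 (plus strand) and chr1:55087988-55088107 (plus strand).

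Hspa1a: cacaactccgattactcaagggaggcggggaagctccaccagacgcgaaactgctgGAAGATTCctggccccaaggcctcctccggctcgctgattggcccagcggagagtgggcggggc
Hspb1: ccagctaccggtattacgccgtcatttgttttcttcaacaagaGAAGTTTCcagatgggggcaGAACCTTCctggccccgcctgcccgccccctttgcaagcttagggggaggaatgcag
Hspe1: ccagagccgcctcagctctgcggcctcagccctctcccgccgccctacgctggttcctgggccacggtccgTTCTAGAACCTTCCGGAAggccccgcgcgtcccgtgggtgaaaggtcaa

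The window of Hspb1 holds 2 separate matches and that of Hspe1 holds 3 overlapping ones. The window of Hspa1b is identical to that of Hspa1a at 120 of 120 positions, and the whole promoter entries of 300 bases are identical at 296. Hspd1 and Hspe1 are transcribed in opposite directions from neighbouring starts on chromosome 1, and the entry of 1 of the 2 annotated Hspd1 starts holds the same run of units on the other strand, while that of the other start holds none. Of the 78 genes, 63 had at least 1 promoter entry reaching from 250 bases before to 50 bases after the start. The 15 genes without an entry, among them Hspa8, Hspa9, Hsp90aa1, Hsp90ab1, Hsf1 and Hspb2, could not be searched. Dnajb1 had an entry with 0 matches to the pair of units. Where a gene had several starts, a match in any entry counted. Either pair of units, each its own reverse complement, was found in 17 of these 63 (27.0%), against 1869 of the 12802 genes of the table with an entry (14.6%). A run of 3 alternating units (GAA and TTC in turn, in either order and each 2 bases from the next) was found in 4 members (6.35%), namely Dnajb6, Hspd1, Hspe1 and Hsph1, against 76 genes of the table (0.594%). The letters CCACG, part of the endoplasmic reticulum stress element, stood on either strand in 40 members (63.5%) and in 48.1% of the table's genes. Hspd1 and Hspe1 share the same run of units, and the near-identical Hspa1a and Hspa1b entered these counts as separate genes. The matches counted are therefore not all independent of each other. A match is a description of letters and not of a bound factor.

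The level per length shows which chaperones held most of the members' deposited TPM. How evenly the library kit recovered RNA of different genes is not known here, so levels of different genes compare only loosely. On the deposited TPM scale Hspa8, the constitutive cytosolic HSP70, had a mean of 2106 TPM over the 12 libraries, 26.2% of the summed TPM of all members. Hsp90b1, the HSP90 of the endoplasmic reticulum, followed at 586 TPM and Hsp90ab1, the constitutive cytosolic HSP90, at 574 TPM, and these neighbours did not differ beyond their spread. Hspa5, the HSP70 of the endoplasmic reticulum also called BiP, stood at 332 TPM and Hspa9, the mitochondrial HSP70, at 327 TPM, again within their spread. The mitochondrial chaperonin Hspd1 (HSP60) and its co-chaperonin Hspe1 (HSP10) were close at 288 and 277 TPM. Only Hspa8 had a mean TPM of at least 1000, 20 members reached 100 TPM, 54 reached 10 TPM and 72 reached 1 TPM.

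By family, the 8 HSP70 members held 36.6% of the members' TPM, the 25 DNAJC members 17.8%, the 3 HSP90 members 17.6% and the chaperonin pair 7.04%. The 12 DNAJB members held 6.60%, the 6 BAG members 4.96%, the 4 DNAJA members 3.65% and the 3 HSP110 members 3.34%. The 4 heat shock factors held 0.838% and the 6 small heat shock proteins 0.815%. The inducible HSP70 copies together reached 45.9 TPM, far below the constitutive Hspa8. The lowest means belonged to Hsf2bp (0.232 TPM), Hspb3 (0.576 TPM) and Dnajc6 (0.636 TPM).

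**Figure D1:**
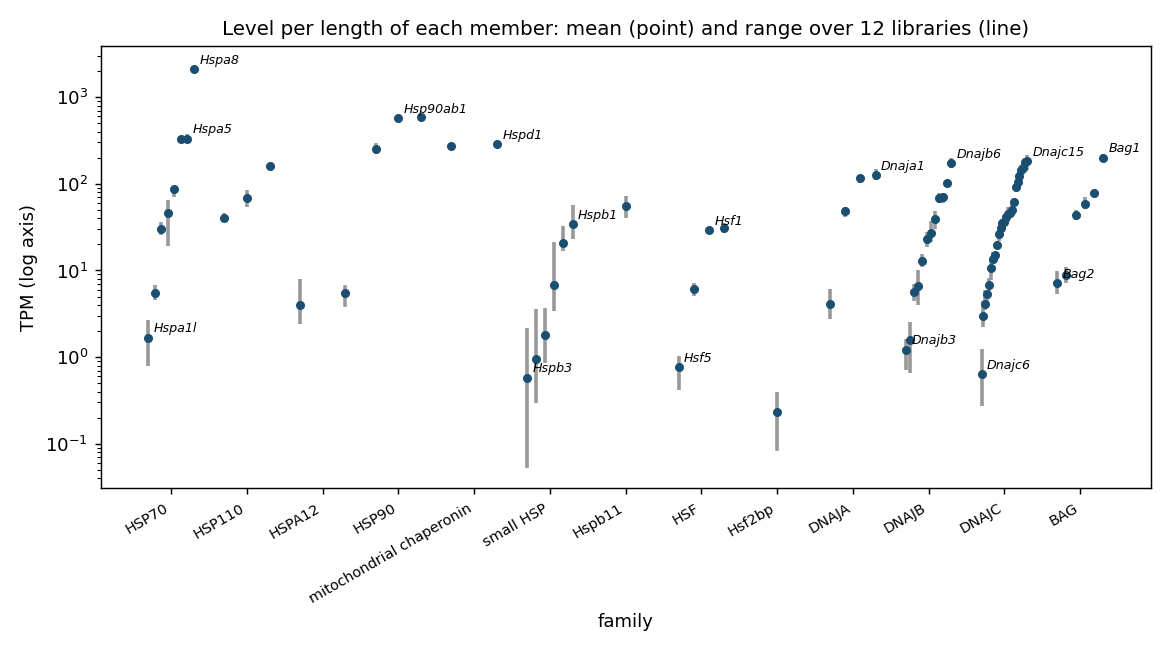
Mean TPM (log axis) of each of the 77 members as a point with its lowest and highest library as a line, arranged by family. Hspa8 lies highest at 2106 TPM, Hsf2bp lowest at 0.232 TPM, and the lines are longest for Hspb3, Hspb6 and Hspb7.

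As a whole the members took a nearly constant share of the counts. They held between 0.811% (CAL replicate 4) and 0.895% (CAL replicate 2) of all counts, and the groups overlapped. In TMM-normalised CPM their sum was 7943 to 8722 in control, 8043 to 9035 in CAL and 8367 to 9050 in CAL_Dll4i, again with overlap. Spread was measured as the SD of log2(CPM + 0.5) over the 12 libraries. Its median over the 76 members that passed the filter on low counts was 0.123, against 0.158 over the 18550 genes tested. Set beside genes of like level, 46 of the 76 had less spread than the median of the 500 tested genes nearest to them in level. Dnajc13, a DnaJ protein of endosomes, was steadiest, with a ratio of 1.08 between its highest and lowest library and an SD of 0.037, and only 0.14% of the genes tested had a lower SD. Bag6, which guards newly made membrane proteins, followed with an SD of 0.048.

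At the other end stood Hspb6 with an SD of 0.66, combined Hspa1a and Hspa1b with 0.618, Hspb7 with 0.596 and Hspa12a with 0.465. Combined Hspa1a and Hspa1b ranged 3.64-fold between libraries, and 95.5% of the genes tested had a lower SD. Low genes vary more by counting alone, and among the members above 50 CPM no other SD exceeded 0.23: Hsph1, the inducible HSP110, had 0.229 and Dnajb4 0.217.

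**Figure D2:**
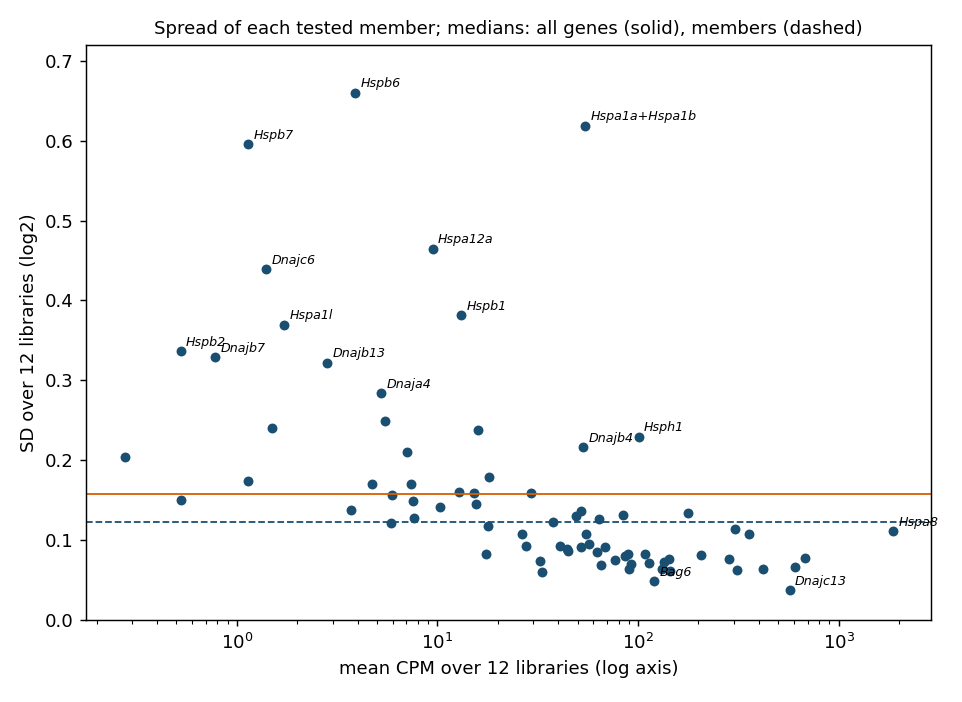
SD of log2(CPM + 0.5) over 12 libraries against mean CPM (log axis), 1 point per tested member. The solid line is the median SD of all genes tested (0.158) and the dashed line that of the members (0.123), and combined Hspa1a and Hspa1b lie far above other members of like level.

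No member passed the test in any of the 3 comparisons. With edgeR's quasi-likelihood test, and p-values adjusted by the Benjamini-Hochberg method over 18550 genes, 0 of 76 members were called at an adjusted p under 0.05 in CAL against control, where 0.00539% of all genes were called (1 gene), and 0 of 76 in each comparison of CAL_Dll4i, where 0% were called. The smallest adjusted p of a member was 0.188 in CAL against control, 0.660 in CAL_Dll4i against CAL and 0.714 in CAL_Dll4i against control. At an unadjusted p under 0.05 there were 4 members in CAL against control, 2 higher (all genes 7.01%) and 2 lower (7.57%). There were 7 in CAL_Dll4i against CAL, 5 higher (4.46%) and 2 lower (2.95%), and 4 in CAL_Dll4i against control, 3 higher (3.85%) and 1 lower (3.06%). DESeq2 called 1 member, Hspa12a, in CAL against control, where it called 3.61% of genes, and 0 in the comparisons of CAL_Dll4i, where it called 0.0054% and 0.35%. limma's voom with sample weights called 0 members in each comparison (background 0.388%, 0% and 0%).

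Most estimates were small: the log2 fold change exceeded 0.5 in either direction for 5 of 76 members in CAL against control, 6 in CAL_Dll4i against CAL and 3 in CAL_Dll4i against control. Of the 76 members, 39 were estimated higher in CAL than in control, where 48.4% of all genes were, 45 in CAL_Dll4i over CAL (51.3%) and 46 in CAL_Dll4i over control (49.6%). The members' median log2 fold changes were 0.01, 0.03 and 0.02, beside -0.01, 0.00 and 0.00 for all genes. The 95% interval of the log2 fold change lay within ±0.5 for 58, 60 and 61 members and within ±1 for 68, 67 and 71, so for most members a doubling lay outside the interval. A p that misses the threshold does not show that a gene did not differ. The comparisons share libraries in pairs, so their fold changes are not independent of each other.

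**Figure D3:**
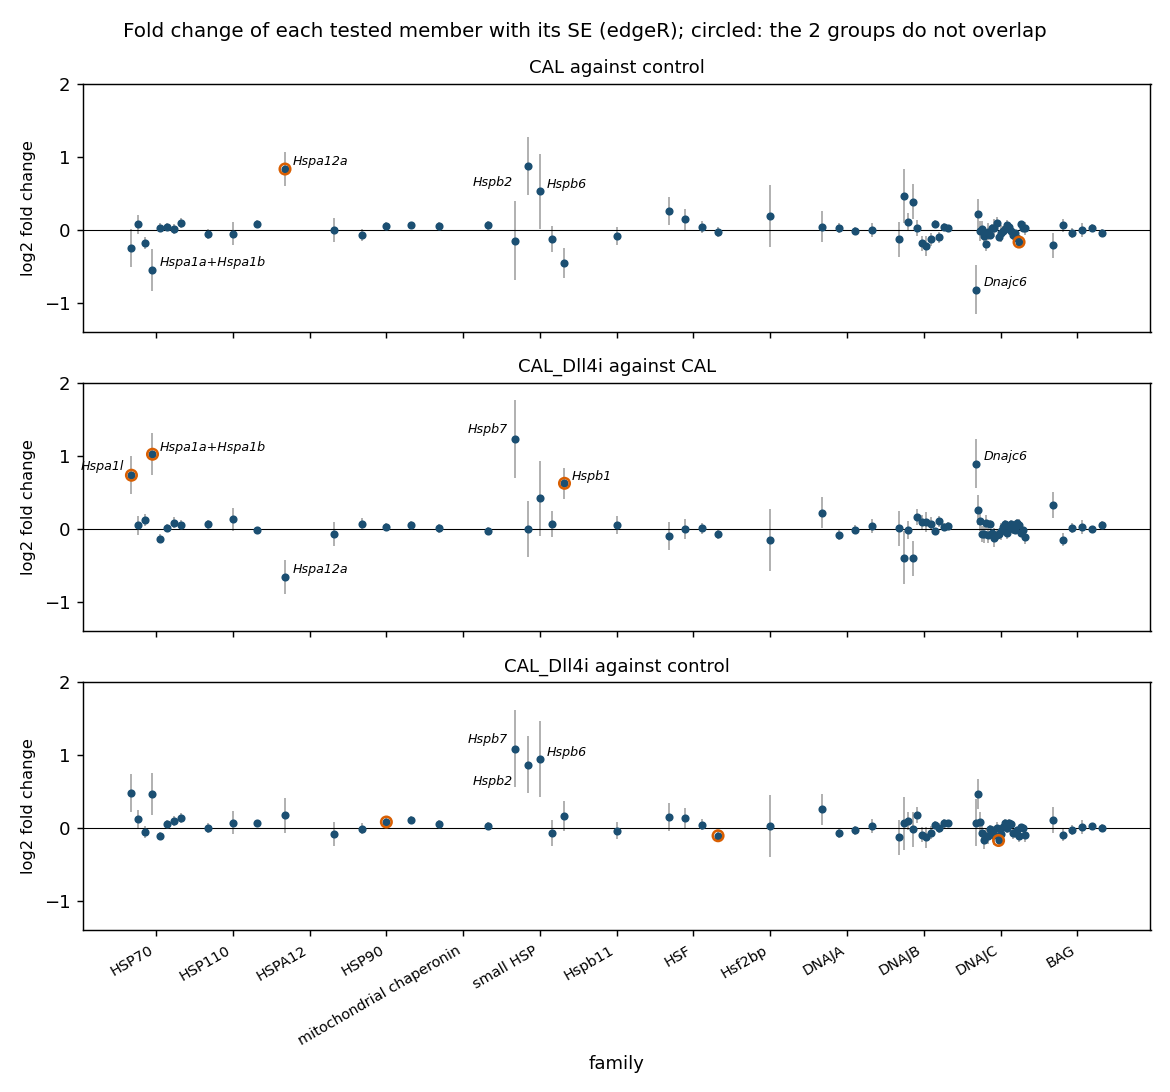
Log2 fold change with its SE (edgeR) of each of the 76 tested members in the 3 comparisons, arranged by family and, within a family, by TPM. Members whose 2 groups do not overlap in CPM are circled. These are Hspa12a and Dnajc8 in the top panel, combined Hspa1a and Hspa1b, Hspa1l and Hspb1 in the middle panel, and Dnajc24, Hsp90ab1 and Hsf2 in the bottom panel.

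Among the regulators, 0 of the 4 heat shock factors passed the test in any comparison. Hsf1, the main factor of the heat shock response, had 27.1 ± 1.89, 27.8 ± 2.43 and 28.0 ± 1.38 CPM in control, CAL and CAL_Dll4i (SD, n = 4 each). Hsf2, a second factor that forms complexes with HSF1, had 44.0 to 46.8 CPM in control and 40.1 to 43.9 CPM in CAL_Dll4i, without overlap (log2 fold change -0.10 ± 0.07, adjusted p 0.756 by edgeR with Benjamini-Hochberg adjustment). On the deposited TPM scale Hsf2 overlapped, at 30.5 to 34.3 TPM in control and 27.1 to 31.3 TPM in CAL_Dll4i. Hsf4, known from the lens, lay between 3.83 and 5.53 CPM and Hsf5, known from the testis, between 0.722 and 1.43 CPM in all libraries. RNA levels of these factors carry no measure of their activation, which takes place on the protein.

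The inducible HSP70 copies varied most among the abundant members. Combined Hspa1a and Hspa1b had 37.4, 68.4, 49.2 and 58.1 CPM in control replicates 1 to 4, 24.5, 59.0, 39.6 and 22.2 CPM in CAL, and 65.6, 72.5, 76.3 and 80.8 CPM in CAL_Dll4i. All 4 CAL_Dll4i libraries lay above all 4 CAL libraries, and control lay between them and overlapped both. The means of control, CAL and CAL_Dll4i were 53.3 ± 13.2, 36.3 ± 16.9 and 73.8 ± 6.43 CPM (SD, n = 4 each). The estimate was 2.03-fold higher in CAL_Dll4i than in CAL, a log2 fold change of 1.02 ± 0.29 with an unadjusted p of 0.00478 and an adjusted p of 0.660 by edgeR with Benjamini-Hochberg adjustment, so the difference did not pass. DESeq2 gave an adjusted p of 0.125 and voom 0.393. Against control the log2 fold changes were -0.55 ± 0.29 for CAL (adjusted p 0.400) and 0.47 ± 0.29 for CAL_Dll4i (adjusted p 0.747) in the same edgeR fit.

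Both copies gave this pattern, with a ratio of Hspa1a to Hspa1b counts between 0.901 and 1.00 in every library. Of the stretches of 75 bases in Hspa1a transcripts, 52.7% also occur in Hspa1b. The read length is not known here, but a read lying within a shared stretch fits either copy. The steady ratio is therefore not independent support from a second gene. Hspa1a lies at chr17:34969359-34972156 and Hspa1b at chr17:34956429-34959238 (GRCm38.p6). Without the 3 libraries with muscle RNA the log2 fold change between CAL_Dll4i and CAL was 1.24 (adjusted p 0.394 by edgeR with Benjamini-Hochberg adjustment). That fit keeps only replicates 3 and 4 of CAL, and replicate 4 had the lowest level of all libraries. Several marker lists were also compared between CAL and CAL_Dll4i libraries. None of their genes was called there by edgeR at an adjusted p under 0.05. The adipocyte sum was 1746 to 2574 CPM in CAL and 1328 to 1697 CPM in CAL_Dll4i. Of these markers 10 of 10 were estimated lower, 6 of them without overlap (all genes 1.76%). The keratinocyte sum ran from 2.42 to 50.9 CPM in CAL and from 1.64 to 325 CPM in CAL_Dll4i, and 2 of its 3 markers were estimated higher. Smooth muscle and pericyte markers summed to 48.9 to 92.0 CPM and 89.4 to 110 CPM, with 5 of 7 estimated higher (median log2 fold change 0.44), 2 of them without overlap. Of the immediate early genes 8 of 9 were estimated higher (median 0.11) in CAL_Dll4i than in CAL and 7 of 9 lower (median -0.14) in CAL than in control, with sums of 295 to 385 CPM in CAL and 305 to 455 CPM in CAL_Dll4i. Red cell genes were estimated lower in CAL_Dll4i for 5 of 5 (median -0.81), with sums of 260 to 904 CPM in CAL and 334 to 533 CPM in CAL_Dll4i. None of the measured markers of these lists was at 0 in any library, and their part in the difference was not tested, here or for Hspa1l and Hspb1.

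Hspa1l, a testis-enriched HSP70 whose gene lies beside the inducible copies, followed the same order at a far lower level. It had 1.498, 1.83, 1.21 and 0.806 CPM in CAL and 2.07, 1.84, 2.86 and 2.12 CPM in CAL_Dll4i, which did not overlap, while control at 1.06, 2.02, 1.73 and 1.53 CPM overlapped both. Its log2 fold change between CAL_Dll4i and CAL was 0.74 ± 0.26 (adjusted p 0.660 by edgeR with Benjamini-Hochberg adjustment). Its value is uncertain, since 7.09% of its stretches of 75 bases occur in Hspa1a too, whose copies are far more abundant.

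The constitutive and compartment HSP70 members had close group means. Hspa8 had 1778, 1707, 1894 and 1676 CPM in control, 1846, 2055, 1930 and 1679 CPM in CAL, and 1792, 1926, 1932 and 2138 CPM in CAL_Dll4i, and all 3 groups overlapped. Its largest estimate, CAL_Dll4i against control, was a log2 fold change of 0.14 with a 95% interval from -0.02 to 0.30. Hspa5 had 322 to 395 CPM in control, 320 to 389 CPM in CAL and 365 to 384 CPM in CAL_Dll4i. Hspa9 had 380 to 427, 406 to 448 and 403 to 442 CPM in the same order. Hspa2, best known from male germ cells, lay between 4.82 and 7.02 CPM. Hspa14, an HSP70 partner at the ribosome, had 71.1 ± 2.77 CPM in CAL and 64.9 ± 4.57 in CAL_Dll4i (log2 fold change -0.13 ± 0.06, unadjusted p 0.0426, adjusted p 0.670 by edgeR with Benjamini-Hochberg adjustment).

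**Figure D4:**
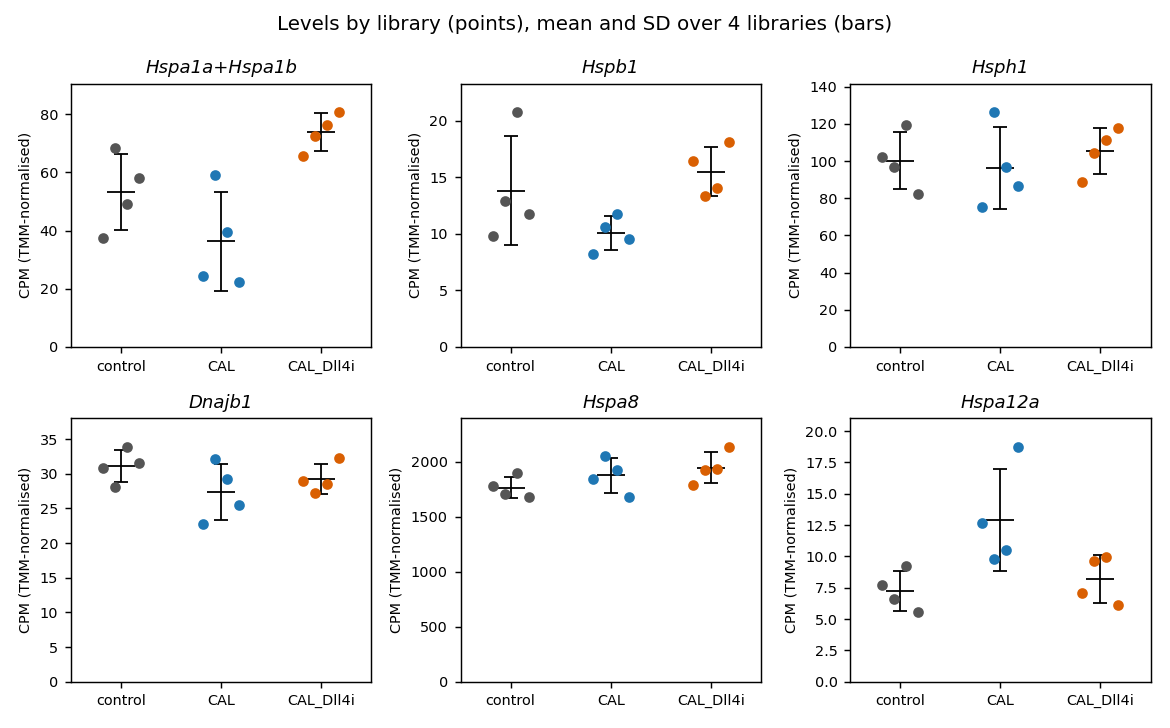
TMM-normalised CPM of 6 members, 1 point per library, with the mean and SD of each group of 4 as a bar. All CAL_Dll4i points of combined Hspa1a and Hspa1b and of Hspb1 lie above all CAL points, all CAL points of Hspa12a lie above all control points, and the groups overlap for Hsph1, Dnajb1 and Hspa8.

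The HSP110 members exchange nucleotide for HSP70. Hsph1, which holds 3 matches to the pair of units in its promoter entry, had 102, 96.9, 120 and 82.5 CPM in control, 75.5, 127, 96.7 and 86.4 CPM in CAL, and 88.8, 105, 111 and 118 CPM in CAL_Dll4i. The groups overlapped throughout, and the highest and the lowest library were both CAL. Hspa4 lay between 283 and 334 CPM and Hspa4l between 56.7 and 69.6 CPM in all libraries.

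HSPA12 members are distant HSP70 relatives, and Hspa12a stood apart from its neighbour. Hspa12a (chr19:58795750-58943672, GRCm38.p6) had 7.69, 6.60, 9.26 and 5.53 CPM in control, 12.6, 9.79, 10.5 and 18.8 CPM in CAL, and 7.05, 9.64, 9.98 and 6.15 CPM in CAL_Dll4i. Its exons overlap those of Eno4 on the opposite strand, so reads of this pair may not be separated. All CAL libraries lay above all control libraries in CPM, and CAL overlapped CAL_Dll4i only through CAL replicate 2, the lowest of its group. On the deposited TPM scale CAL replicate 2 (4.02 TPM) lay just below control replicate 3 (4.08 TPM), so CAL and control overlapped there. In CPM, 1 of the members was higher without overlap in CAL than in control, where 3.61% of all genes were. The estimate was 1.78-fold higher in CAL, a log2 fold change of 0.83 ± 0.24 with an unadjusted p of 0.00431 and an adjusted p of 0.188 by edgeR with Benjamini-Hochberg adjustment. It did not pass there, whereas DESeq2 gave an adjusted p of 0.0245 and voom 0.0926. Between CAL_Dll4i and CAL the log2 fold change was -0.66 ± 0.24 (adjusted p 0.660 in the edgeR fit). Hspa12b, known from endothelium, lay between 5.05 and 8.72 CPM with no such difference (log2 fold change -0.01 in CAL against control).

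Adipocyte markers were estimated in the same directions as Hspa12a, but none was called by edgeR with Benjamini-Hochberg adjustment. Their smallest adjusted p in that fit was 0.206 in CAL against control and 0.670 in CAL_Dll4i against CAL. All 10 were estimated higher in CAL than in control (median log2 fold change 0.88), and all 10 lower in CAL_Dll4i than in CAL (median -0.65). At an unadjusted p under 0.05 in the edgeR fit, 8 were higher in CAL than in control (all genes 7.01%). In that comparison 3 were higher without overlap (3.61%), and DESeq2 called 1 (3.61%). In CAL_Dll4i against CAL, 1 was lower at that unadjusted p (2.95%) and 6 were lower without overlap (1.76%). Their sum was 789 to 1715 CPM in control, 1746 to 2574 CPM in CAL and 1328 to 1697 CPM in CAL_Dll4i, and the library with most, CAL replicate 4, also had most Hspa12a. Their part in the Hspa12a difference was not tested. Without the 3 libraries with muscle RNA the log2 fold change of Hspa12a between CAL and control was 1.01. CAL then held only its replicates 3 and 4, the latter with most Hspa12a.

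HSP90 chaperones mature kinases and receptors. In control, CAL and CAL_Dll4i the inducible cytosolic form Hsp90aa1 had 309 ± 25.5, 293 ± 31.2 and 308 ± 14.7 CPM. Hsp90ab1 had 596, 583, 590 and 572 CPM in control and 618, 606, 605 and 654 CPM in CAL_Dll4i. These did not overlap in CPM, but the log2 fold change was 0.09 ± 0.05 (adjusted p 0.729 by edgeR with Benjamini-Hochberg adjustment). On the deposited TPM scale Hsp90ab1 overlapped, at 549 to 586 TPM in control and 553 to 585 TPM in CAL_Dll4i. Hsp90b1 had 653 ± 22.2, 680 ± 32.2 and 707 ± 38.7 CPM in control, CAL and CAL_Dll4i, with a log2 fold change of 0.11 ± 0.05 between CAL_Dll4i and control (unadjusted p 0.0477, adjusted p 0.714 in the same fit). In the mitochondria Hspd1 had 280 ± 21.1, 291 ± 15.9 and 285 ± 6.12 CPM and Hspe1 had 87.2 ± 4.96, 89.9 ± 6.16 and 90.7 ± 5.06 CPM in control, CAL and CAL_Dll4i. Their exons overlap each other on opposite strands, and whether counting used strand is not known here.

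Small heat shock proteins hold unfolded clients without ATP, and Hspb1 (HSP27) is the broadly expressed inducible one. Hspb1 (chr5:135887919-135889563, GRCm38.p6) had 9.77, 12.9, 20.8 and 11.8 CPM in control, 8.26, 10.6, 11.8 and 9.50 CPM in CAL, and 16.4, 13.4, 14.1 and 18.1 CPM in CAL_Dll4i. All CAL_Dll4i libraries lay above all CAL libraries, and control overlapped both, with its replicate 3 the highest of all. The log2 fold change between CAL_Dll4i and CAL was 0.63 ± 0.21 (1.54-fold, unadjusted p 0.0114, adjusted p 0.660 by edgeR with Benjamini-Hochberg adjustment) and did not pass. Between CAL and control it was -0.46 ± 0.21 (unadjusted p 0.0485, adjusted p 0.339). In CAL_Dll4i against CAL, 3 of 76 members were higher without overlap (combined Hspa1a and Hspa1b, Hspa1l and Hspb1) and 0 lower, against 1.57% and 1.76% of all genes.

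Hspb2, Hspb3, Hspb6 and Hspb7, small heat shock proteins best known from heart and skeletal muscle, had their highest CPM in CAL_Dll4i replicate 3, the library with the highest muscle sum. On the deposited TPM scale this held for all but Hspb2, which had 3.69 TPM in CAL replicate 1 and 3.07 TPM in CAL_Dll4i replicate 3. Hspb3 had 0.413 and 0.682 CPM in CAL replicates 1 and 2 and 0.743 CPM in CAL_Dll4i replicate 3, and at most 0.112 CPM in the other 9 libraries. Hspb6 had 4.91 and 4.60 CPM in the same 2 CAL libraries and 12.4 CPM in CAL_Dll4i replicate 3, against 2.03 to 3.74 CPM elsewhere. Hspb7 had 4.33 CPM in CAL_Dll4i replicate 3 and between 0.335 and 1.16 CPM in all others, CAL replicates 1 and 2 included. Hspb2 had 0.964, 0.629 and 1.04 CPM in the 3 libraries and between 0.252 and 0.694 CPM in the other 9, so that only CAL_Dll4i replicate 1, at 0.694 CPM, passed the lowest of the 3.

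Their fold changes moved with these libraries. For Hspb2 the log2 fold change was 0.87 ± 0.39 against control in both other groups, with adjusted p of 0.335 for CAL and 0.714 for CAL_Dll4i by edgeR with Benjamini-Hochberg adjustment. Without the 3 libraries these log2 fold changes were 0.39 and 0.50, with only replicates 3 and 4 left in CAL. For Hspb7 it was 1.24 ± 0.53 in CAL_Dll4i against CAL (adjusted p 0.667) and 0.68 without the 3 libraries. Hspb2 also overlaps exons of Cryab, another small heat shock gene, and Hspb6 those of Lin37 and Proser3, all on the opposite strand, so reads of these pairs may not be separated. Hspb8, a partner of BAG3, had 16.6 ± 5.20, 15.2 ± 1.71 and 15.9 ± 1.41 CPM in control, CAL and CAL_Dll4i, and its values in the 3 libraries lay within the range of the other 9.

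**Figure D5:**
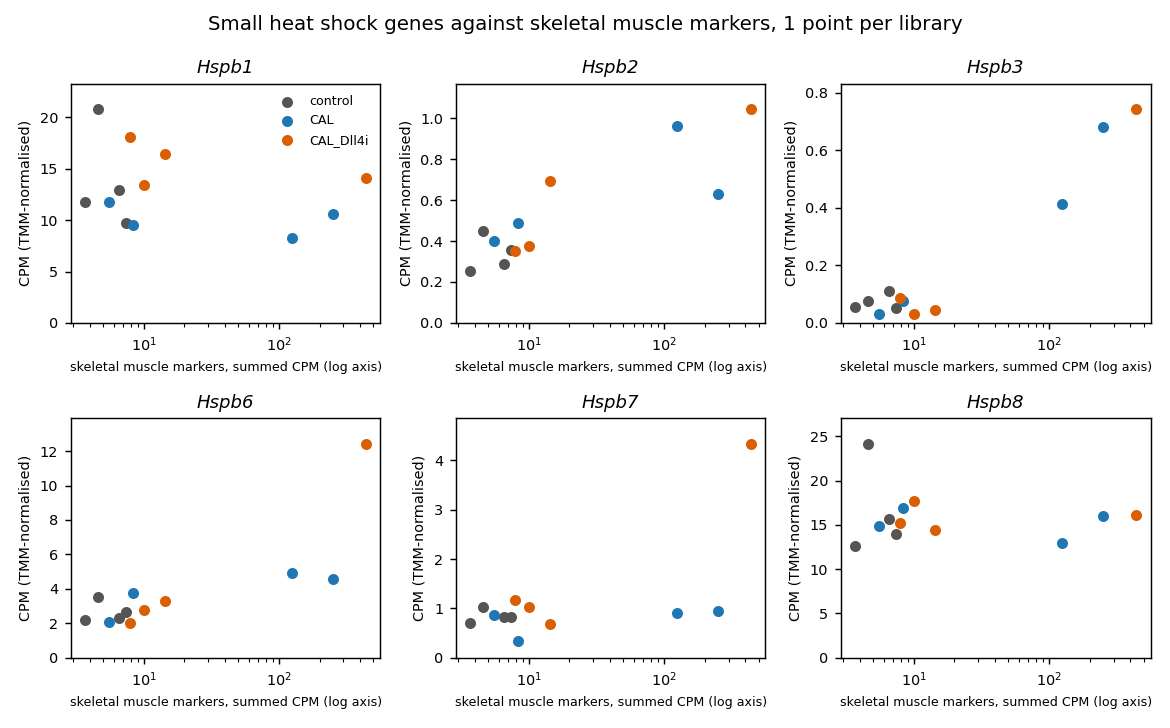
CPM of the 6 small heat shock genes (linear axes) against the summed CPM of 6 skeletal muscle markers (log axis), 1 point per library. Hspb3 and Hspb6 are higher in the 3 libraries with muscle sums of 124, 250 and 443 CPM than in the others, Hspb2 overlaps the others at 0.629 CPM, Hspb7 is high only in the last of the 3, and no value of Hspb1 or Hspb8 in them is above the range of the others.

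The DnaJ members divide by domain layout into DNAJA, DNAJB and DNAJC. Dnajb1, the inducible HSP40, had 30.8, 28.2, 33.9 and 31.6 CPM in control, 22.7, 32.1, 29.2 and 25.5 CPM in CAL, and 28.9, 27.2, 28.5 and 32.3 CPM in CAL_Dll4i, and the groups overlapped. Dnaja1 had 177 ± 19.6, 177 ± 21.2 and 181 ± 14.6 CPM in control, CAL and CAL_Dll4i, Dnajb4 had 57.7 ± 10.95, 49.5 ± 8.46 and 52.8 ± 5.38 CPM, and Dnajb5 lay between 6.44 and 8.88 CPM in all libraries. Of the 16 DNAJA and DNAJB members, 0 reached an unadjusted p under 0.05 in any comparison, and 0 had groups without overlap. Of all genes, between 2.95% and 7.57% reached that p per comparison and direction and between 1.57% and 3.75% had groups without overlap, so counts of 0 of 16 are near the background.

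Those of the endoplasmic reticulum had close group means. Dnajb9 had 56.5 ± 2.81, 52.6 ± 5.47 and 56.6 ± 2.19 CPM, Dnajb11 had 84.6 ± 4.10, 86.8 ± 6.04 and 88.5 ± 4.97 CPM, and Dnajc3, also an inhibitor of the kinase PKR, had 134 ± 8.07, 132 ± 7.98 and 139 ± 2.71 CPM in control, CAL and CAL_Dll4i.

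Among the 25 DNAJC members the differences were small or at low counts. Dnajc6, the neuronal form of auxilin that uncoats clathrin vesicles, had 1.23, 1.44, 1.04 and 2.68 CPM in control, 1.36, 0.988, 0.620 and 0.669 CPM in CAL, and 1.947, 1.21, 1.71 and 1.88 CPM in CAL_Dll4i. CAL was lowest on average but overlapped both other groups through its replicate 1. The log2 fold change was -0.82 ± 0.33 in CAL against control, with an adjusted p of 0.294 by edgeR with Benjamini-Hochberg adjustment. In CAL_Dll4i against CAL it was 0.90 ± 0.33, with an adjusted p of 0.660. Without the 3 libraries with muscle RNA they were -1.31 and 1.38. Those fits keep only replicates 3 and 4 of CAL.

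Dnajc8, which is linked to splicing, had 86.3 to 94.9 CPM in control and 73.0 to 85.0 CPM in CAL without overlap (log2 fold change -0.17 ± 0.08, adjusted p 0.357 in the same edgeR fit), where 3.75% of all genes were lower without overlap. Dnajc24, which acts in making the diphthamide of elongation factor 2, had 17.7 to 19.1 CPM in control and 15.5 to 17.0 CPM in CAL_Dll4i, again without overlap (log2 fold change -0.17 ± 0.06, adjusted p 0.714). In CAL_Dll4i against control, 1 member was higher and 2 were lower without overlap in CPM, against 2.42% and 2.35% of all genes. Dnajc30, a mitochondrial protein, had 1.26 ± 0.139 CPM in control and 1.75 ± 0.477 in CAL_Dll4i (log2 fold change 0.47 ± 0.21, adjusted p 0.714), and its exons overlap Bud23 on the opposite strand.

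The BAG factors link HSP70 to other processes. Bag1, which couples it to the proteasome, had 115 ± 5.92, 111 ± 6.99 and 116 ± 3.60 CPM in control, CAL and CAL_Dll4i. Bag3, which couples it to autophagy and is a target of HSF1, had 63.9 ± 7.76, 63.6 ± 6.41 and 64.8 ± 4.66 CPM. Bag6 had 119 ± 2.68, 121 ± 4.72 and 121 ± 5.20 CPM. Bag2, an inhibitor of client ubiquitylation, lay between 3.95 and 7.35 CPM, Bag4 between 15.4 and 21.7 CPM and Bag5 between 40.0 and 50.4 CPM over all libraries. Of the 6, 0 reached an unadjusted p under 0.05 in any comparison by edgeR's quasi-likelihood test, which 2.95% to 7.57% of all genes did per comparison and direction, so that 0 of 6 is near the background.

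Whether the inducible HSP70 copies varied together with other members was examined over the 12 libraries for 10 genes. Combined Hspa1a and Hspa1b correlated best with Hspb1, at Pearson's r = 0.68 (permutation p 0.0154, adjusted over the 10 relations 0.154) and Spearman's rho = 0.71 (permutation p 0.0112, adjusted 0.112). The r was 0.58 with Hspa5, 0.56 with Hsph1, 0.55 with Dnajb1, 0.51 with Hsp90aa1, 0.46 with Hsp90ab1, 0.41 with Hspa8, 0.28 with Bag3, 0.26 with Hspe1 and -0.02 with Hspd1. None passed an adjusted p under 0.05, the smallest adjusted p of r being 0.154. Without CAL replicates 1 and 4, the libraries farthest from the median, whose removal narrows the range of the combined copies, r was highest with Hspb1 (0.42) and lowest with Dnajb1 (-0.28), and it was lower than over all libraries for every gene but Hspe1 and Hspd1. After centring each group on its mean, Hsp90ab1 had the highest r, 0.65 (permutation p 0.0241, adjusted 0.156), followed by Dnajb1 with 0.58 (permutation p 0.045, adjusted 0.156), Hsph1 with 0.56, Hspa5 with 0.55 and Hspa8 with 0.53. Centred r was 0.48 with Hsp90aa1, 0.37 with Hspe1, 0.33 with Hspb1, 0.32 with Bag3 and 0.19 with Hspd1, and none passed after adjustment. The permutations moved centred values across groups without allowing for the means removed, so the centred p-values may be too small.

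Genes of neighbouring pathways, taken from fixed lists, were counted in the same way. By edgeR with Benjamini-Hochberg adjustment, 0 genes of the 7 lists were called in any comparison. Of the 23 HSP90 co-chaperones, 0 were higher (all genes 7.01%) and 1 was lower (all genes 7.57%) at an unadjusted p under 0.05 in CAL against control, a count not above the background. This gene, Unc45a, a myosin chaperone, had 25.6 ± 1.97, 21.5 ± 1.05 and 25.1 ± 1.24 CPM in control, CAL and CAL_Dll4i. Its log2 fold change there was -0.25 ± 0.07, with an adjusted p of 0.185 in edgeR and 0.0311 in DESeq2. In CAL_Dll4i against CAL it was 0.22 ± 0.07 with an adjusted p of 0.660, and the groups did not overlap in either comparison. Of the co-chaperones, 1 was higher (all genes 4.46%) and 1 lower (2.95%) at an unadjusted p under 0.05 in CAL_Dll4i against CAL, and 0 higher (3.85%) and 1 lower (3.06%) in CAL_Dll4i against control.

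Of the 14 HSP70 cofactors, 0 reached an unadjusted p under 0.05 in CAL against control (all genes 7.01% higher, 7.57% lower) or CAL_Dll4i against CAL (4.46% and 2.95%), and 1 was lower in CAL_Dll4i against control (3.06%). This gene, Hscb, which delivers iron-sulfur clusters, had 11.4 ± 0.728 CPM in control and 9.31 ± 0.392 in CAL_Dll4i (log2 fold change -0.30 ± 0.09, adjusted p 0.698 by edgeR with Benjamini-Hochberg adjustment), without overlap. Of the 15 genes of the chaperonin TRiC and its prefoldin partners, 1 was lower at an unadjusted p under 0.05 in CAL against control (all genes 7.57%), Pfdn6 (log2 fold change -0.23 ± 0.09), and 0 in the comparisons of CAL_Dll4i. A further list of 7 holds the 2 alpha crystallins Cryab and Cryaa, which are small heat shock proteins, and 5 genes that are not: the collagen chaperone Serpinh1, the disaggregase Clpb, and the mitochondrial Clpp, Clpx and Lonp1 of the Clp and Lon proteases. On this list Cryaa, the lens crystallin, had 1.01 ± 0.270 CPM in control and 0.405 ± 0.224 in CAL (log2 fold change -1.31 ± 0.51, adjusted p 0.282). It was the 1 gene lower at an unadjusted p under 0.05 in that comparison (all genes 7.57%), Lonp1 was the 1 higher (all genes 7.01%), and 0 reached it in the comparisons of CAL_Dll4i.

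Of the 26 endoplasmic reticulum stress genes, 19 were estimated higher in CAL_Dll4i than in control (median log2 fold change 0.07, all genes 0.00), and 49.6% of all genes were estimated higher. Of these, 2 reached an unadjusted p under 0.05: Pdia3, a disulfide isomerase, with 417 ± 11.9 CPM in control and 461 ± 19.4 in CAL_Dll4i (log2 fold change 0.15 ± 0.04, adjusted p 0.706 by edgeR with Benjamini-Hochberg adjustment), and Canx (0.11 ± 0.04, adjusted p 0.714). Of all genes, 3.85% were higher at that p. In CAL against control 1 gene of this list was higher (all genes 7.01%) and 1 lower (7.57%), and in CAL_Dll4i against CAL 1 was higher (4.46%) and 0 lower (2.95%). Of the 24 proteasome genes, 4 were estimated higher and 20 lower in CAL than in control (median -0.06), where 48.4% of all genes were estimated higher. In CAL_Dll4i against control 3 were estimated higher and 21 lower (median -0.06), where 49.6% of all genes were higher. At an unadjusted p under 0.05 there were 0 in either comparison, against 7.01% higher and 7.57% lower of all genes in the first and 3.85% and 3.06% in the second. Both comparisons use the same control libraries. Of the 9 tested HSF1 regulators, 0 reached an unadjusted p under 0.05 in any comparison, where 2.95% to 7.57% of all genes did per direction.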

How the data were processed

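Per the labels' protocols, Trizol was used for extraction and the SureSelectXT RNA Direct Reagent Kit for the libraries; HISAT2, StringTie and build mm10 are named in the submitters' processing notes, without versions. The authors deposited estimated counts (whole numbers, not scaled), FPKM and TPM per gene and library, per the file headers. The derivation of the estimated counts and the strand of counting are not given in the sources used here. Exons of 29 of the 78 genes overlap another gene, among them Hspa14 (Gm45902, same strand), Hsp90b1 (1810014B01Rik, opposite strand) and Hspa1l (Gm10501, opposite strand). Deposited values of FPKM served only to check the table, and the deposited TPM gave levels per length.

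Counts of all genes were tested in R 4.3.3 with edgeR 4.0.16 (TMM, filterByExpr, robust quasi-likelihood fit of 12 libraries), and rounding changed no count. Calls are at a Benjamini-Hochberg adjusted p under 0.05 over 18550 genes; Hspb3 did not pass the filter. Fold changes are log2 with SE, and means carry the SD over 4 libraries. DESeq2 1.42.0 and voom in limma 3.58.1 were alternatives, with other scalings, filters, left-out libraries and a replicate block. The code was tested on simulated data.

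Named with a fold change were members at an unadjusted p under 0.05 or without overlap, a fixed set was named with levels, and at most 2 genes of the smallest p per list. Overlap was judged in TMM-normalised CPM. Outside this rule, fold changes were also given for Hspa8, for Hspa12b, and for combined Hspa1a and Hspa1b against control. Members and lists were chosen with earlier results of these data known. Same-numbered libraries of different groups had deviations correlated at -0.41 to 0.17 (2 of 12 pairs over 0.1). This gave no sign of pairing by number, but it cannot exclude a shared animal, day or batch. Positions and promoters are from RefSeq GRCm38.p6. Figures used Python 3.11.15 and matplotlib 3.10.9. Protein sequences were not used here.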

Additional observations from a re-analysis of the deposited data

Results flagged for a closer look

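Among 120 groups of 4 libraries (40 members named in the text), 10 held a library that stood far from the other 3 by Dixon's criterion, which chance exceeds in about 1 in 20 groups. CAL replicate 2 was high for Hspa9, at 448 CPM against 406 to 413 CPM, and for Dnaja1, at 208 CPM against 164 to 168 CPM. CAL replicate 4 was high for Bag4, at 21.7 CPM against 17.6 to 18.2 CPM, and low for Hspb7, at 0.335 CPM against 0.857 to 0.952 CPM. CAL replicate 1 was high for Hspb11, at 15.3 CPM against 14.5 to 14.6 CPM. Control replicate 4 was low for Hspe1, at 79.8 CPM against 88.8 to 90.6 CPM, and control replicate 2 was low for Hsf5, at 0.722 CPM against 1.13 to 1.15 CPM.

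CAL_Dll4i replicate 3, the library with a skeletal muscle marker sum of 443 CPM, was high for 3 small heat shock genes. Hspb3 stood at 0.743 CPM against 0.0315 to 0.0883 CPM, Hspb6 at 12.4 CPM against 2.03 to 3.29 CPM and Hspb7 at 4.33 CPM against 0.679 to 1.16 CPM.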

How the results depend on the processing

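The number of members called stayed at 0 in all 3 comparisons under RLE and upper-quartile scaling, no filter, a filter at 1 CPM in 4 libraries, voom with sample weights, a fit of just the 2 groups compared, each library left out in turn (0 to 0 members), and without the 3 libraries with muscle RNA, a setting chosen after seeing the data. The last of these settings leaves only replicates 3 and 4 in CAL. DESeq2 called 1 member, Hspa12a (0.83, adjusted p 0.0245), in CAL against control. With the replicate number as a block, 0 members were called in each comparison. The labels do not say that the numbers pair the libraries. Over 321 values of members named with a fold change, 320 kept their direction and side of the threshold, Hspa12a under DESeq2 being the exception. The log2 fold change of combined Hspa1a and Hspa1b between CAL_Dll4i and CAL ran from 0.85 (without CAL replicate 4) to 1.36 (without CAL replicate 2), with adjusted p from 0.125 to 0.999. For Hspb1 it ran from 0.54 to 0.71. Hspa12a in CAL against control ran from 0.59 to 1.01 (adjusted p 0.0245 to 0.383), and Hspb7 in CAL_Dll4i against CAL from 0.33 to 1.51. The correlation of combined Hspa1a and Hspa1b with Dnajb1 was -0.28 without CAL replicates 1 and 4, and that with Hspd1 was 0.049 without them and 0.19 with groups centred; the cause was not tested. Asking for 3 alternating units in the promoter gave 4 members in place of 17, since fewer sequences can match. Depth limits the lowest members most: the smallest count of a member in a library was 2, while the median SE of the members' log2 fold changes was 0.08, against 0.13 over all genes.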
